A study of Drosophila melanogaster with 21 samples.

Results

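The 9 genes described here are the small heat shock protein genes Hsp22, Hsp23, Hsp26, Hsp27, Hsp67Bc and l(2)efl, the Hsp90 gene Hsp83, and the co-chaperone genes DnaJ-1 and stv. They were taken by their FlyBase identifiers from the 17559 genes counted in each library, and 8 of the 9 had enough reads to be tested among 10558 genes. RNA was sequenced from heads of female Drosophila melanogaster in 7 groups of 3 libraries. All groups carried the pan-neuronal driver Elav-GAL4 and were reared at 25°C, and each library pooled heads of several flies. The study's methods call the libraries of a group biological replicates. The age of the flies is not given in the sources used here.

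Of the groups, 3 had RNAi against a single gene, dlg1 (VDRC line 41136) and Fsn (line 26577) from the GD collection and Cbp20 (line 107112) from the KK collection. The pairwise groups Cbp20/dlg1 and Cbp20/Fsn combined the Cbp20 line with one of the other lines. Control GD was the driver crossed to the GD host strain and Control KK the driver crossed to the KK host strain (line 60100). The labels give the pairs the KK background, but each pair also carried a GD-collection line. Control KK is treated below as the control of their background, although neither control mixed GD and KK. By the genotypes in the study's methods, neither control carried an RNAi insertion, so the insertion and the knockdown cannot be told apart in any comparison with a control. Elav-GAL4 acts in neurons while the libraries hold RNA of whole heads, and each knockdown rests on a single line. A lower level of an RNA in bulk heads cannot be told apart from fewer cells that make it.

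Heat shock proteins are molecular chaperones that bind unfolded proteins. Small heat shock proteins share an alpha-crystallin domain and hold clients without using ATP. Hsp70, helped by J-domain proteins such as DnaJ-1 and by BAG-domain proteins such as the product of stv (starvin), refolds them or passes them on, and Hsp90, encoded by Hsp83, completes the folding of kinases, receptors and other clients. Many of these genes are driven by the heat shock factor Hsf under stress, and several are also transcribed in unstressed tissue, Hsp26, Hsp27 and Hsp83 in the nurse cells of the ovary among them.

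Gene counts per library ranged from 17712938 to 28759171, and 3 counts, taken as the floor of detection, equalled 0.104 to 0.169 CPM, the unit used below for read counts scaled to library size after TMM normalization. The targeted gene was lower in every group labelled with its knockdown. Cbp20 RNA was at 5.08 to 6.59 CPM in the 9 libraries with Cbp20 RNAi and at 14.3 to 14.7 CPM in Control KK, Fsn RNA was at 17.03 to 19.9 CPM in the Fsn group and 26.5 to 29.7 CPM in Control GD, and dlg1 RNA was at 338 to 371 CPM in the dlg1 group and 388 to 411 CPM in Control GD. The Fsn group, which has no dlg1 RNAi, had as little dlg1 RNA (257, 367 and 351 CPM), so this level does not set the dlg1 group apart. Markers of neurons, glia and photoreceptors were present in every library. Replicates 1 and 3 of Cbp20/Fsn stood apart by ovary germline markers, and replicate 2 of dlg1 stood apart by several heat-inducible genes. Both are described with the genes they touch. Other libraries also stood apart by marker sums. Fsn replicate 1 had a neuron sum of 2835 CPM against 4182 and 3775 CPM in its fellow replicates. Its glia sum was 633 CPM against 808 and 764 CPM. Cbp20/dlg1 replicate 3 had a midgut sum of 81.6 CPM against at most 41.2 CPM elsewhere. Its neuron sum was 3562 CPM against 4567 and 4461 CPM in its fellow replicates. The eggshell sum of dlg1 replicate 3 was 65.6 CPM against at most 17.7 CPM elsewhere, with 58.2 CPM from Cp15. Antenna sums ranged widely within groups, as from 28.5 to 116 CPM in Cbp20 and 49.8 to 125 CPM in Control GD.

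Of the 9 genes, 5 lie together in the 67B cluster on chromosome arm 3L, within 14184 bp (BDGP6.54 annotation, positions 9371511 to 9385694). In order along the arm these are Hsp67Bc (9371511 to 9372497, minus strand), Hsp22 (9372931 to 9374964, plus strand), Hsp26 (9376418 to 9377427, minus strand), Hsp23 (9381882 to 9382765, plus strand) and Hsp27 (9384063 to 9385694, plus strand). Hsp83 (3192969 to 3197059, plus strand), DnaJ-1 (5750029 to 5752189, minus strand) and stv (13477541 to 13483515, plus strand) are elsewhere on 3L. The gene l(2)efl is on 2R (23684651 to 23685543, minus strand). The counted features are whole genes, so exons, introns and untranslated regions were not separated.

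Per kilobase of annotated exon, Hsp83 was the most abundant of the 9, with a median of 260 CPM per kilobase over the 21 libraries. The gene l(2)efl followed with 121 CPM per kilobase, then DnaJ-1 with 67.4, stv with 41.8, Hsp23 with 17.9, Hsp67Bc with 9.10, Hsp26 with 7.97 and Hsp27 with 1.63. The range within a gene was narrowest for Hsp67Bc, whose highest library was 1.29 times its lowest, and widest for Hsp27, at 11.9 times.

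**Figure D1:**
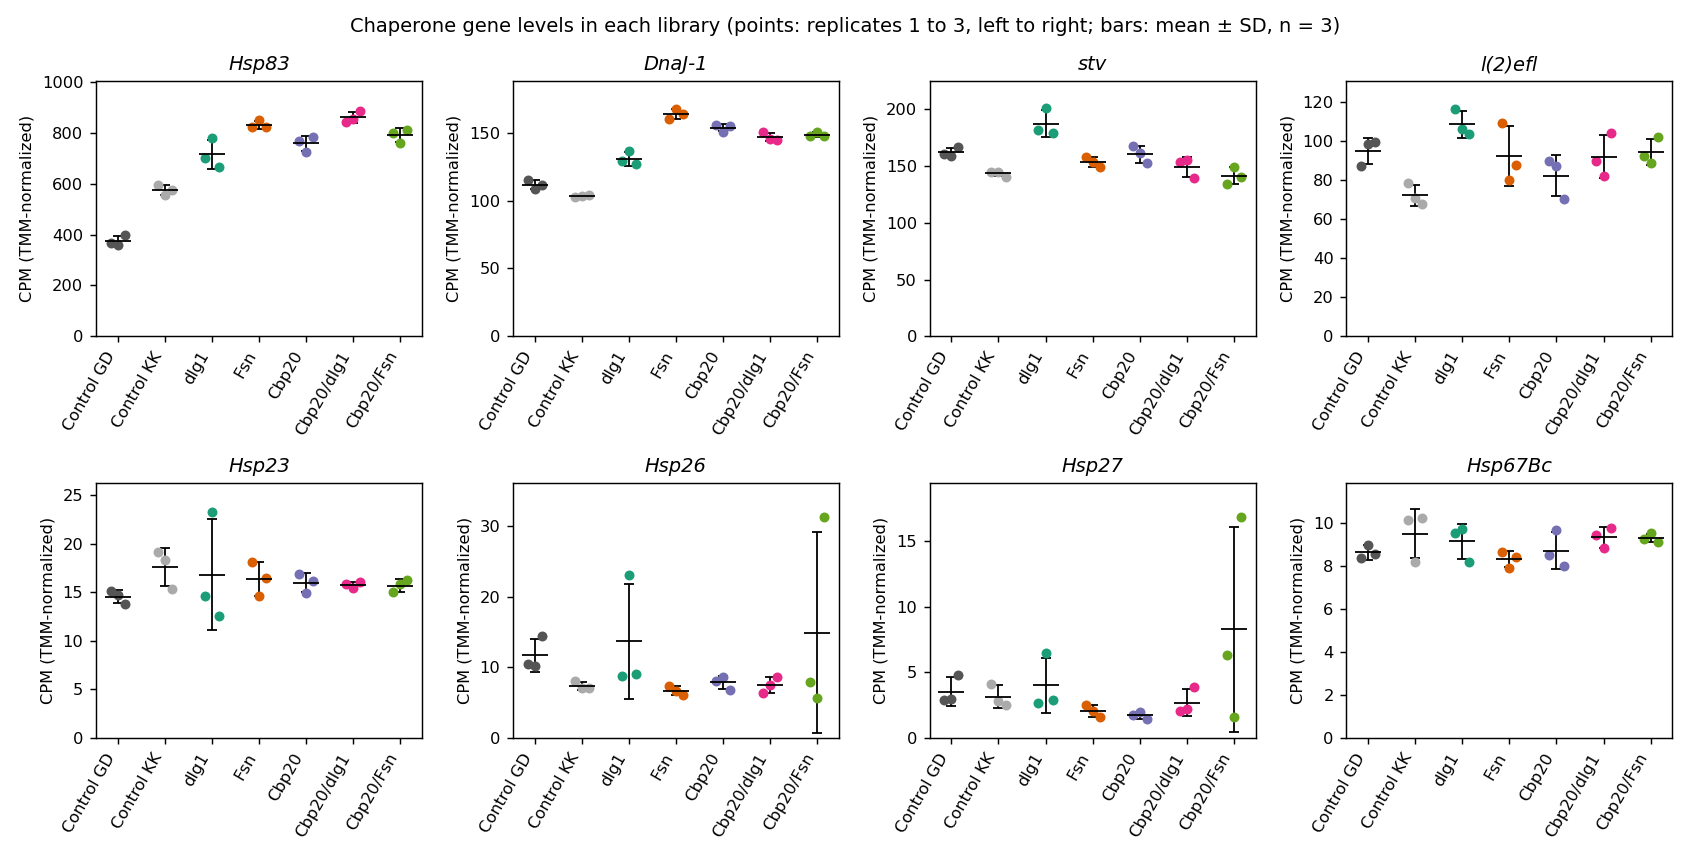
TMM-normalized CPM of the 8 measured genes in each of the 21 libraries, 1 panel per gene with its own axis from 0, with points for the replicates and bars for the group mean ± SD (n = 3). Hsp83 and DnaJ-1 sit above both controls in all 5 knockdown groups. The wide bars of Hsp26 and Hsp27 are in dlg1, where replicate 2 was highest, and in Cbp20/Fsn, where replicate 3 was highest. For Hsp27, Cbp20/Fsn replicate 1 (6.32 CPM) was also above replicate 2 (1.63 CPM).

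Hsp83 and DnaJ-1 rose in every knockdown group against the control of its own background, and the other changes among the 8 genes were fewer. A change is a false discovery rate (FDR, Benjamini-Hochberg over all tested genes) under 0.05 in edgeR's quasi-likelihood test. In dlg1, 3 of the 8 genes were higher and none lower, where 4.24% of all tested genes were higher and 5.02% lower. In Fsn, 2 were higher and none lower against 20.3% and 17.9% of all genes. In Cbp20, 2 were higher and none lower against 7.02% and 14.6%. In Cbp20/dlg1, 3 were higher and none lower against 7.37% and 5.76%, and in Cbp20/Fsn 3 were higher and none lower against 8.63% and 8.45%. With the further requirement of an absolute log2 fold change above 1, which the study used, only Hsp83 in Fsn remained. That stricter rule was passed by 3.24% of all genes for Cbp20, 3.0% for Cbp20/Fsn, 2.41% for Fsn, 2.03% for Cbp20/dlg1 and 1.96% for dlg1. The median log2 fold change of the 8 genes was 0.43 for Cbp20/Fsn, 0.21 for dlg1, 0.13 for Cbp20, 0.04 for Cbp20/dlg1 and -0.05 for Fsn, and the median of all tested genes lay between -0.00231 and 0.0287.

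Hsp83, the cytosolic Hsp90, had the largest called change against a control among the 8 genes. Control GD had 367, 360 and 398 CPM in replicates 1, 2 and 3, and Control KK had 593, 555 and 576 CPM. The dlg1 libraries had 702, 779 and 667 CPM, and the Fsn libraries 823, 850 and 821 CPM. No knockdown library overlapped either control. Cbp20 had 769, 723 and 783 CPM, Cbp20/dlg1 had 841, 856 and 886 CPM, and Cbp20/Fsn had 801, 761 and 813 CPM. In the order of group means, Control GD was lowest, then Control KK, dlg1, Cbp20, Cbp20/Fsn, Fsn and Cbp20/dlg1. Libraries of the neighbours dlg1 and Cbp20, Cbp20 and Cbp20/Fsn, and Fsn and Cbp20/dlg1 overlapped.

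Against the control of the same background, the log2 fold change of Hsp83 was 1.15 ± 0.06 (SE) with knockdown of Fsn (FDR = 2.51e-10), 0.93 ± 0.06 with that of dlg1 (FDR = 3.05e-09) and 0.40 ± 0.06 with that of Cbp20 (FDR = 4.49e-05). The pairs gave 0.58 ± 0.06 for Cbp20/dlg1 (FDR = 1.59e-06) and 0.46 ± 0.06 for Cbp20/Fsn (FDR = 2.48e-05). The controls themselves differed by 0.62 ± 0.06 (FDR = 4.17e-07), with Control KK higher. Read against Control KK, the rise was 0.32 in dlg1 (FDR = 4.79e-04) and 0.53 in Fsn (FDR = 3.71e-06), and read against Control GD it was 1.20 for Cbp20/dlg1, 1.08 for Cbp20/Fsn and 1.02 for Cbp20 alone. The direction held with either control, but the ranking of the groups by fold change did not. Separate sequencing batches of one library gave Hsp83 levels within 1.05 times of each other.

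DnaJ-1, which encodes an Hsp40 protein that delivers clients to Hsp70, had the least scatter between replicates. It was at 115, 108 and 112 CPM in Control GD and at 103, 103 and 104 CPM in Control KK. The libraries of dlg1 had 129, 136 and 127 CPM, those of Fsn 160, 168 and 164 CPM, and those of Cbp20 156, 151 and 155 CPM. Every knockdown library lay above every control library. Cbp20/dlg1 had 150, 146 and 145 CPM and Cbp20/Fsn had 148, 151 and 147 CPM. The dlg1 group was the lowest of the knockdowns and Fsn the highest, and only Cbp20/dlg1 and Cbp20/Fsn overlapped among neighbours in the order.

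The log2 fold change of DnaJ-1 was 0.57 ± 0.04 with knockdown of Cbp20 (FDR = 1.89e-08), 0.55 ± 0.04 with that of Fsn (FDR = 7.13e-08) and 0.23 ± 0.04 with that of dlg1 (FDR = 0.00125). The pairs gave 0.52 ± 0.04 for Cbp20/Fsn (FDR = 6.06e-08) and 0.51 ± 0.04 for Cbp20/dlg1 (FDR = 1.03e-07). Control KK was 0.11 ± 0.04 below Control GD, which did not pass the test (FDR = 0.068). Against the other control the value was 0.66 for Fsn, 0.46 for Cbp20, 0.41 for Cbp20/Fsn, 0.40 for Cbp20/dlg1 and 0.34 for dlg1, all with an FDR under 0.05. Without Fsn replicate 1, Cbp20/dlg1 replicate 3 or dlg1 replicate 3, DnaJ-1 and Hsp83 kept their calls in those groups.

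Summed markers of other head cells moved with some of these groups, though not every marker followed its sum. The summed level of head fat body markers was 51193 to 69399 CPM in Fsn and 26505 to 32768 CPM in Control GD. It was 18826 to 24688 CPM in Cbp20 and 45132 to 54376 CPM in Control KK. The glia sum was 592 to 620 CPM in dlg1 and 804 to 814 CPM in Control GD. Over the 21 libraries the fat body sum correlated with Hsp83 at 0.21 and with DnaJ-1 at 0.0094, and the glia sum at -0.224 and -0.0604, as descriptions over libraries that share preparation and groups. The part of these markers in the rises was not tested.

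**Figure D2:**
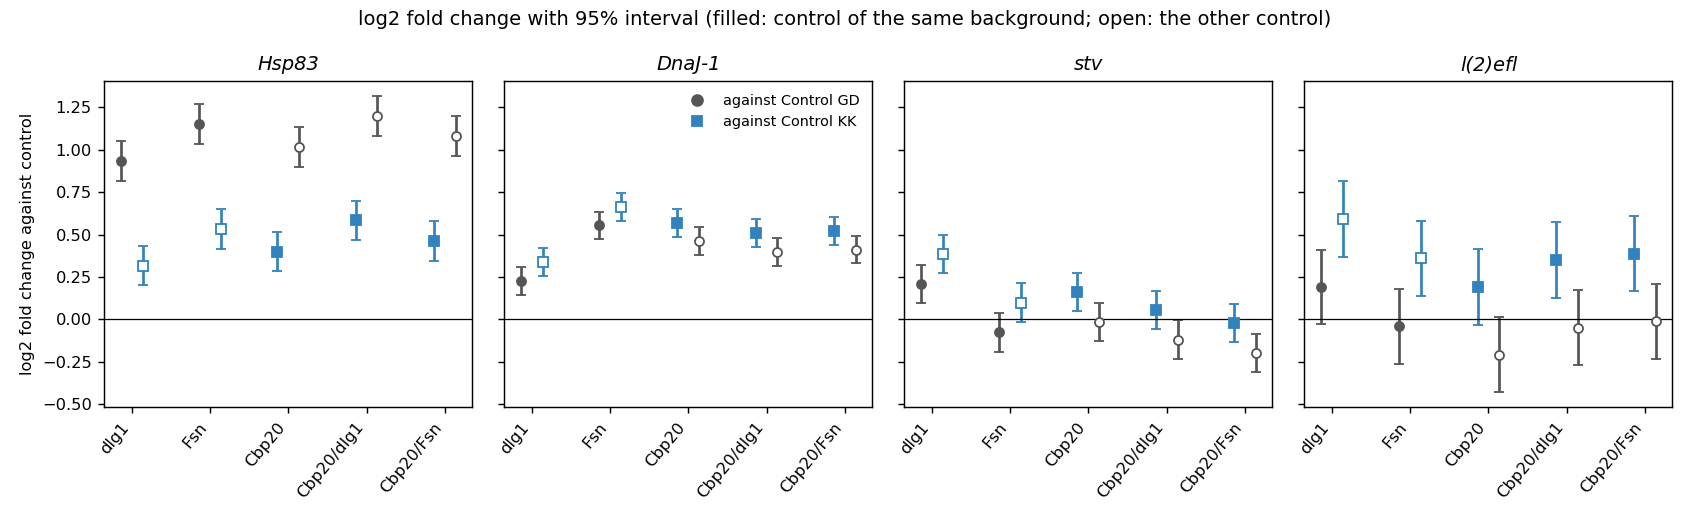
log2 fold change of Hsp83, DnaJ-1, stv and l(2)efl in the 5 knockdown groups against Control GD (grey circles) and Control KK (blue squares), filled for the control of the same background and open for the other, with 95% intervals from the standard errors. All intervals of Hsp83 and DnaJ-1 lie above 0, while l(2)efl moves across 0 with the control chosen, as at 0.39 and -0.01 in Cbp20/Fsn.

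Over all tested genes, 5 (0.0474%) were higher with an FDR under 0.05 in all 10 tests of the 5 knockdown groups against both controls. Besides Hsp83 and DnaJ-1 these were w, Hsp70Bb and Tbcb, and they are named here because of this count. The tests share their controls, and 3 of the groups share the Cbp20 line. The gene w encodes an eye pigment transporter, a short form of which marks most fly transgenes, and the promoter of UAS constructs comes from an Hsp70 gene. Both genes stood at a low level without an RNAi insertion. RNA of w was at 38.4 ± 1.12 CPM (SD, n = 3) in Control KK and 39.3 ± 0.28 CPM in Control GD, against 206 ± 11.8 CPM in Fsn, 426 ± 16.5 CPM in dlg1 and 844 ± 31.6 CPM in Cbp20. Hsp70Bb was at 0.545 to 0.860 CPM in the 6 control libraries, 78.2 to 89.3 CPM in Fsn, 135 to 160 CPM in dlg1, 202 to 235 CPM in Cbp20 and 262 to 300 CPM in the pairwise groups. Hsp70Bb has near-identical copies, so its counts are uncertain. DnaJ-1 correlated with Hsp70Bb at 0.877 and with w at 0.806 over the 21 libraries, and at -0.0596 and -0.303 within groups. Among the knockdowns Fsn had the least w RNA and the most DnaJ-1. The part of the insertions in the rise of Hsp83 and DnaJ-1 was not tested.

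The gene stv encodes a BAG-domain co-chaperone that works with Hsp70 and small heat shock proteins in muscle maintenance. Its levels were 181, 201 and 179 CPM in dlg1, above every other library. Control GD had 161, 159 and 167 CPM, and Control KK had 145, 145 and 141 CPM. The remaining groups ranged from 134 to 167 CPM and overlapped. The rise in dlg1 was 0.21 ± 0.06 on the log2 scale (FDR = 0.0257), and 0.38 against Control KK (FDR = 5.04e-05). Without dlg1 replicate 2 it was 0.16 and no longer passed the test, and likewise without Control GD replicate 1 (0.20) or 2 (0.19). In the other knockdown groups stv did not pass the test against the matched control, with log2 fold changes of 0.16 for Cbp20 (FDR = 0.0527), 0.06 for Cbp20/dlg1, -0.02 for Cbp20/Fsn and -0.08 for Fsn. Against the other control, stv was lower in Cbp20/Fsn (-0.20, FDR = 0.0231) and did not pass in Fsn, Cbp20 or Cbp20/dlg1. Within groups, stv varied with the summed level of 9 muscle markers (r = 0.708 over 21 libraries sharing depth and preparation). Without regard to group the value was 0.26. The muscle sum was 6922 to 7236 CPM in dlg1 and 7622 to 8230 CPM in Control GD. With the glia sum, stv correlated at -0.601 over the 21 libraries and at -0.0268 within groups. That sum was 592 to 620 CPM in dlg1 and 804 to 814 CPM in Control GD. The part of these markers in the result was not tested.

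Among the small heat shock protein genes, Hsp22, whose product is the mitochondrial member of the family, had 0 counts in all 21 libraries. In the annotation used here, all 1900 bp of Hsp22 exons (100%) also belong to CG4456 (Hsp67Bb) on the same strand, which itself had 2 counts over all libraries. Reads shared by 2 genes are set aside by HTSeq as ambiguous. Over the whole genome that class took 2.09% to 2.88% per library of the reads in a gene, in no feature or ambiguous. The authors' annotation release was not checked for this overlap. The count of 0 is therefore not read as absence of Hsp22 RNA, and the gene was not tested.

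Hsp67Bc, an alpha-crystallin protein that binds the stv product, was flat. Its libraries ranged from 7.91 to 10.2 CPM with a median of 8.99 CPM, and the groups followed each other with overlap from the lowest (Fsn, 8.32 ± 0.37 CPM) to the highest (Control KK, 9.49 ± 1.15 CPM). It passed the test in none of the 8 comparisons, and its log2 fold changes lay between -0.12 (Cbp20; 95% interval -0.30 to 0.06) and 0.14. Hsp23 also passed in none. Its libraries had 12.6 to 23.3 CPM with a median of 15.9 CPM, and all groups overlapped with their neighbours in the order of means. The largest difference was between the controls, at 17.6 ± 1.98 CPM in Control KK and 14.5 ± 0.69 CPM in Control GD (log2 0.27 ± 0.15, FDR = 0.214).

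The gene l(2)efl, an alpha-crystallin gene required for viability, was lowest in Control KK with 78.2, 70.7 and 67.5 CPM and highest in dlg1 with 116, 106 and 103 CPM. Control GD had 87.3, 98.5 and 99.3 CPM. The 2 pairwise groups lay close to Control GD, with 89.6, 82.3 and 104 CPM in Cbp20/dlg1 and 92.4, 88.9 and 102 CPM in Cbp20/Fsn. Against Control KK they were higher by 0.35 ± 0.11 (FDR = 0.0472) and 0.39 ± 0.11 (FDR = 0.0248) on the log2 scale. Against Control GD the values were -0.05 and -0.01, so the rise depended on the low level in Control KK. Dropping Cbp20/dlg1 replicate 1 or 3 or any Control KK replicate (0.25 to 0.41) ended the call in Cbp20/dlg1, and dropping Cbp20/Fsn replicate 3 or Control KK replicate 2 or 3 (0.33 to 0.37) ended that in Cbp20/Fsn. The other knockdowns did not pass against the matched control, with 0.19 in dlg1, -0.04 in Fsn and 0.19 in Cbp20. Against Control KK, dlg1 (0.59, FDR = 6.51e-04) and Fsn (0.36, FDR = 0.0264) were higher. Against Control GD, Cbp20 did not pass (-0.21, FDR = 0.22). Within groups, l(2)efl correlated with the neuron marker sum at -0.745, and over the 21 libraries at -0.212. Fsn replicate 1, with the lowest neuron sum, had 109 CPM of l(2)efl against 79.9 and 87.8 CPM in replicates 2 and 3. The part of the neuron share in these values was not tested. The exons of l(2)efl share 75 bp (10.1%) with St3 on the opposite strand, and the strand setting of the counting is not given in the sources used here.

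Between the controls, 1 of the 8 genes was higher in Control KK (Hsp83) and 2 were lower, where 11.8% of all genes were higher, 9.12% lower and 3.36% past the fold-change threshold. The lower genes were l(2)efl (-0.40 ± 0.11, FDR = 0.0163) and stv (-0.18 ± 0.06, FDR = 0.0364). The stv difference lost its call when any of the 6 control libraries was left out, with values of -0.19 to -0.15. That of l(2)efl lost it without replicate 2 or 3 of either control, with values of -0.38 to -0.35.

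Hsp26 and Hsp27, which encode a cytosolic and a mainly nuclear small heat shock protein, had the widest scatter within groups. Hsp27 had 6.32, 1.63 and 16.8 CPM in Cbp20/Fsn, and 2.67, 6.45 and 2.89 CPM in dlg1. The other groups stayed between 1.42 and 4.79 CPM. Hsp26 had 7.88, 5.61 and 31.3 CPM in Cbp20/Fsn and 8.85, 23.1 and 9.13 CPM in dlg1, and 6.07 to 14.4 CPM in the other groups. These genes varied together over the 21 libraries (r = 0.848 of log2 values, 0.915 within groups). The other pairs of measured genes in the cluster correlated at 0.139 to 0.284 over the 21 libraries. Within groups, Hsp23 correlated with Hsp26 at 0.465 and with Hsp27 at 0.344, and the pairs with Hsp67Bc were at 0.126 to 0.246. Counts were small, from 29 to 373 per library for Hsp27, and batches of one library differed by up to 2.34 times.

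None of the 5 comparisons with a control passed the test for either gene. The largest values were in Cbp20/Fsn, at 1.005 ± 0.46 for Hsp26 (FDR = 0.139) and 1.39 ± 0.52 for Hsp27 (FDR = 0.074). Without Cbp20/Fsn replicate 2, both passed, at 1.39 (FDR = 0.028) and 1.88 (FDR = 0.00315), and without replicate 3 they were -0.12 and 0.36.

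The ovary germline markers osk, nos, exu, swa, gnu, png, tor, otu, aub and zpg moved with these libraries. Their summed level was 30.2 CPM in Cbp20/Fsn replicate 1 and 80.6 CPM in replicate 3, against 6.45 CPM in replicate 2. In the other groups it was 6.36 to 20.9 CPM (Control GD), 6.02 to 12.7 (Control KK), 8.76 to 14.8 (dlg1), 6.21 to 6.90 (Fsn), 3.92 to 8.61 (Cbp20) and 8.60 to 14.7 (Cbp20/dlg1). In replicate 3 all 10 markers lay above the 19 libraries other than replicates 1 and 3, and in replicate 1 it was 7 of 10. All 10 had counts in at least 1 library of every group, with nos at 0 in 3 libraries and zpg at 0 in 4. Hsp27 correlated with this sum at r = 0.881 over 21 libraries and 0.672 over 19 without these 2, and Hsp26 at 0.652 and 0.435. With both libraries left out, a choice made after the marker sums were seen, Cbp20/Fsn against Control KK had 1 library, replicate 2, and gave -0.94 for Hsp27 and -0.40 for Hsp26. These values rest on that library, and a test of them would assume that it varies like the other groups. The part of germline RNA in these values was not tested beyond this.

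**Figure D3:**
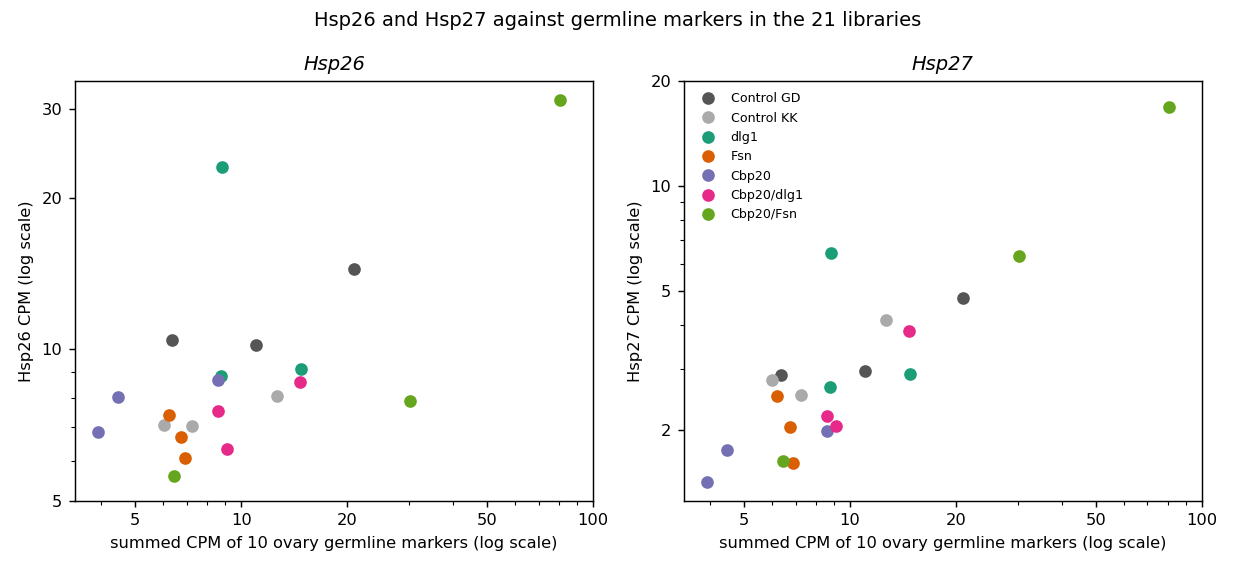
Level of Hsp26 (left) and Hsp27 (right) in CPM against the summed CPM of 10 ovary germline markers, 1 point per library coloured by group, both axes logarithmic. Replicate 3 of Cbp20/Fsn is at the top right of both panels (80.6 CPM of markers), and dlg1 replicate 2 lies above the other libraries with about the same marker level.

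In dlg1 replicate 2, Hsp26 and Hsp27 were high with a germline sum of only 8.80 CPM. Some other heat-inducible genes, though not all, were high in the same library. Hsp68, an inducible Hsp70 relative, had 26.5 CPM there and 12.1 and 12.6 CPM in replicates 1 and 3, with at most 13.2 CPM in the other 20 libraries. Hsp70Bc had 3.25 CPM there and at most 1.25 CPM elsewhere, and both genes were chosen after their values were seen. Hsp70Bb did not stand out there, with 135, 142 and 160 CPM in replicates 1, 2 and 3. Relative to the mean of dlg1 replicates 1 and 3, replicate 2 was 1.71 times as high for Hsp23, 2.57 times for Hsp26, 2.32 times for Hsp27, 1.14 times for Hsp83, 1.11 times for stv and 1.064 times for DnaJ-1, but 0.966 times for l(2)efl. It was the highest of 21 libraries for Hsp23 and stv. Without it, Hsp83 and DnaJ-1 kept their calls in dlg1, at 0.87 and 0.20.

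**Figure D4:**
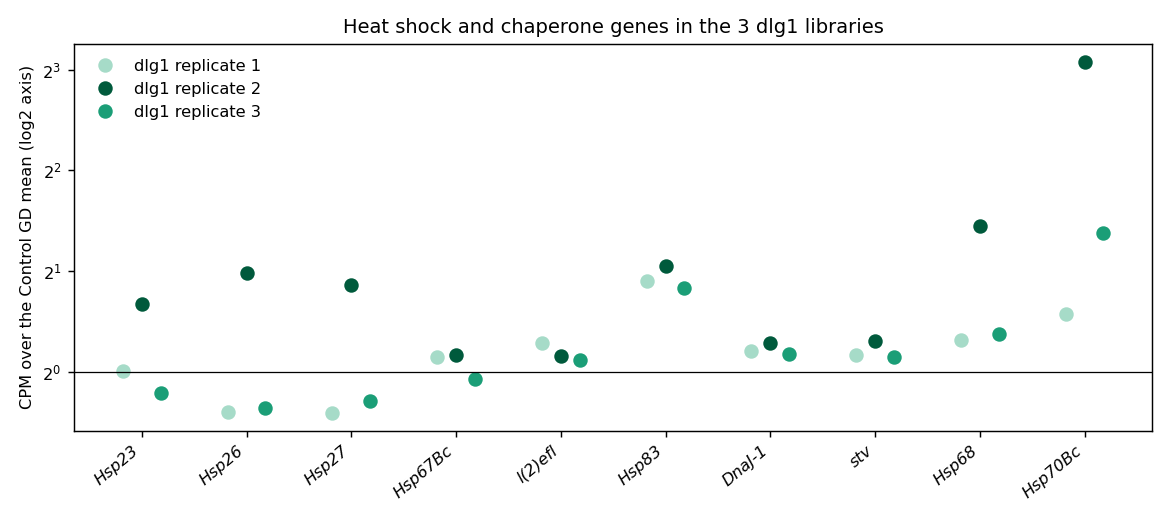
CPM of each dlg1 replicate divided by the mean of Control GD, on a log2 axis, for the 8 measured genes and for Hsp68 and Hsp70Bc. Replicate 2 (dark) is the highest for every gene but l(2)efl, with the widest gaps for Hsp26 (1.98 against 0.757 and 0.781), Hsp27, Hsp68 and Hsp70Bc.

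The pairwise groups were compared with the sum of their individual knockdowns on the log2 scale, each taken against its own control. For Cbp20/dlg1, 3 of the 8 genes were lower than the sum and none higher, where 5.63% of all genes were lower and 12.5% higher, and 4.41% passed the fold-change threshold. The 3 were Hsp83 (-0.75 ± 0.08, FDR = 3.05e-06), stv (-0.31 ± 0.08, FDR = 0.0109) and DnaJ-1 (-0.29 ± 0.06, FDR = 0.00155). For Cbp20/Fsn, 2 were lower and 1 higher, against 2.81% and 3.9% of all genes and 2.6% past the fold threshold. The lower genes were Hsp83 (-1.09 ± 0.08, FDR = 1.31e-07) and DnaJ-1 (-0.60 ± 0.06, FDR = 3.33e-06). The higher gene was Hsp27 (3.02 ± 0.78, FDR = 0.0248), which was 0.69 without Cbp20/Fsn replicates 1 and 3, a value that rests on the 1 library left. Leaving out Cbp20/Fsn replicate 3 alone gave 1.98, and the call was also lost without Fsn replicate 3 (2.88), Cbp20 replicate 1 (3.03) or 3 (2.92), or Control GD replicate 3 (2.75).

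In levels, individual fold changes multiplied to 1448 CPM of Hsp83 in Cbp20/dlg1 and 1681 CPM in Cbp20/Fsn, and the pairs had 861 and 792 CPM. This shortfall carries the difference between the controls. With Control KK taken for all individual knockdowns, a comparison added after the data were seen, the products were 945 and 1097 CPM. The Hsp83 term was then -0.13 ± 0.08 (FDR = 0.242) in Cbp20/dlg1 and -0.47 ± 0.08 (FDR = 0.00139) in Cbp20/Fsn. For DnaJ-1 it was -0.40 (FDR = 3.46e-05) and -0.71 (FDR = 2.33e-07), and for stv -0.49 (FDR = 1.46e-04) and -0.28 (FDR = 0.0409). The mean DnaJ-1 level was 147 and 149 CPM in the pairs and 154 CPM in Cbp20 alone, a difference that was not tested.

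**Figure D5:**
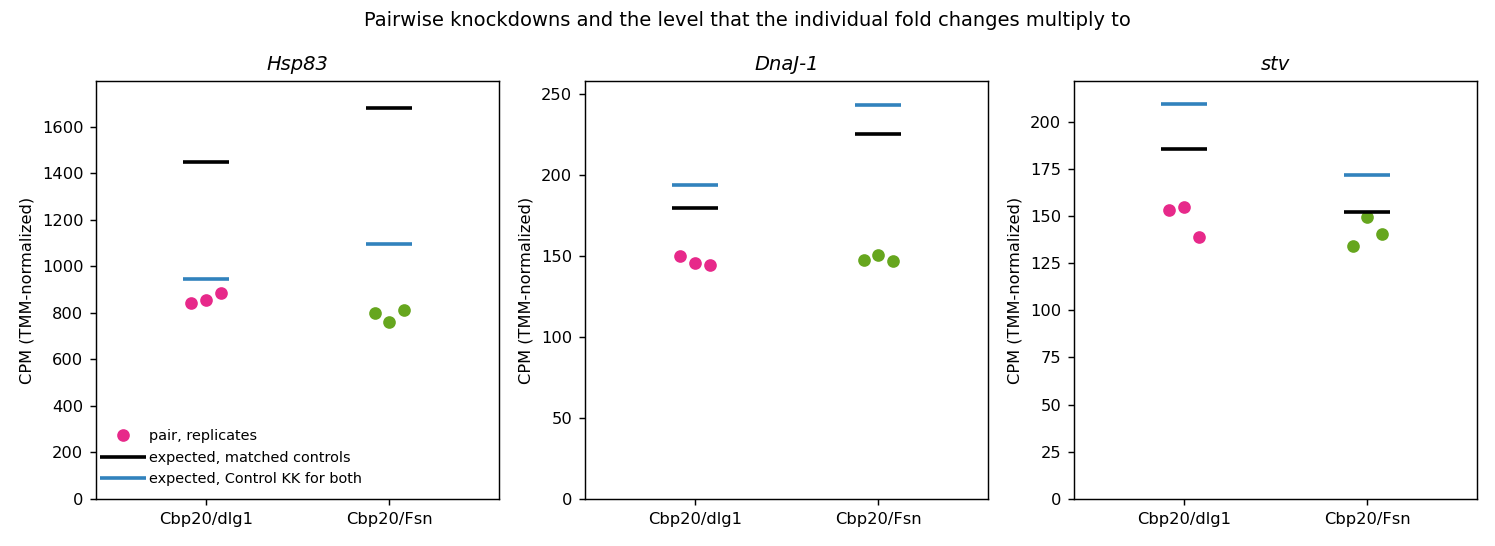
CPM of Hsp83, DnaJ-1 and stv in the pairwise knockdown libraries (points) with the level that the individual fold changes multiply to, using matched controls (black lines) or Control KK for both (blue lines). The Cbp20/dlg1 libraries of Hsp83 lie far below the black line at 1448 CPM and close to the blue line at 945 CPM, while DnaJ-1 lies below both lines in both pairs.

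Other genes of the chaperone network were counted from lists, of which 53 of 55 genes were found in the files. Of 11 Hsp90 paralogs and partners tested, 7 (63.6%) rose in Fsn and none fell, against 20.3% of all genes higher, and their median log2 fold change was 0.23 where that of all genes was 0.03. The 7 were Stip1 (Hop, which links Hsp70 to Hsp90; 0.68 ± 0.07), CG1416 (the Aha1 homologue, an activator of the Hsp90 ATPase; 0.59 ± 0.05), mora (0.47), the kinase co-chaperone gene Cdc37 (0.44), p23 (0.33), Sgt (0.23) and Fkbp59 (0.15). Stip1 was at 63.2, 59.4 and 59.2 CPM in Fsn and 38.9, 37.3 and 37.7 CPM in Control GD. Control KK, however, had 55.2, 55.3 and 54.8 CPM of Stip1, and 5 of the 11 genes were higher in Control KK than in Control GD (45.5%, against 11.8% of all genes). In dlg1, 2 of 11 rose (Stip1 and CG1416), or 18.2% against 4.24% of all genes. In Cbp20 none rose and 2 fell (18.2%), near the 14.6% of all genes that fell. In each pairwise group 1 rose (CG1416), or 9.09%, near the 7.37% of all genes in Cbp20/dlg1 and 8.63% in Cbp20/Fsn. Against the sum, 3 of 11 (27.3%) were lower in Cbp20/Fsn (Stip1, Cdc37 and CG1416), against 2.81% of all genes. In Cbp20/dlg1, 1 (9.09%) was higher, below the 12.5% of all genes.

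Of 16 J-domain genes tested besides DnaJ-1, none changed in dlg1, 2 rose and 2 fell in Fsn, 1 rose and 3 fell in Cbp20, 1 fell in Cbp20/dlg1, and 1 rose and 1 fell in Cbp20/Fsn. In Fsn this was 12.5% in each direction, below the 20.3% and 17.9% of all genes. In Cbp20 it was 6.25% higher and 18.75% lower, near the 7.02% and 14.6% of all genes. The 1 that fell in Cbp20/dlg1 (6.25%) was near the 5.76% of all genes. In Cbp20/Fsn 6.25% rose and 6.25% fell, near the 8.63% and 8.45% of all genes. In dlg1, 4.24% of all genes were higher and 5.02% lower. The gene that fell in all 3 groups with Cbp20 RNAi was CG5504, or l(2)tid, a mitochondrial J-domain gene (-0.61, -0.55 and -0.50), and it was 0.53 higher in Control KK than in Control GD. Of 5 other alpha-crystallin genes, none changed in dlg1, 1 fell in Fsn, 2 rose in Cbp20, 1 rose and 1 fell in Cbp20/dlg1, and 2 rose in Cbp20/Fsn. The 1 of 5 that fell in Fsn (20%) was near the 17.9% of all genes. The 2 of 5 that rose in Cbp20 and in Cbp20/Fsn (40%) stood beside 7.02% and 8.63% of all genes. In Cbp20/dlg1 the 1 that rose and the 1 that fell (20% each) stood beside 7.37% and 5.76%. CG13133 had the largest change, 2.15 ± 0.48 in Cbp20/Fsn (FDR = 0.00421), from 0.311 to 1.05 CPM in Control KK to 2.43 to 4.33 CPM. It was also lower in Control KK than in Control GD (log2 fold change -1.69, FDR = 0.0167). Of 9 tested Hsp70 genes and regulators, 4 rose in dlg1 and in Fsn, 2 in Cbp20 (3 fell), 2 in Cbp20/dlg1 (1 fell) and 3 in Cbp20/Fsn (1 fell). The share higher was 44.4% in both dlg1 and Fsn, where 4.24% and 20.3% of all genes were higher. It was 22.2% in Cbp20 and in Cbp20/dlg1, where 7.02% and 7.37% were, and 33.3% in Cbp20/Fsn, where 8.63% were. The share lower was 33.3% in Cbp20 and 11.1% in each pairwise group, where 14.6%, 5.76% and 8.45% of all genes were lower. Hsp70Bb is among the higher genes in every group. In dlg1 the others were Hsp68, Hsp70Bc and Hsp110. Replicate 2 of dlg1 was the highest for Hsp68 (12.1, 26.5 and 12.6 CPM) and Hsp70Bc (0.571, 3.25 and 0.998 CPM). The largest changes were of Hsp70Bb, at 8.87 in Cbp20/dlg1, and of Hsc70-2, 5.94 higher in Control KK than in Control GD. Of 5 further stress genes, 2 rose in Fsn (Hsp60A and CG11267, the mitochondrial chaperonin genes) and 1, the noncoding lncRNA:Hsromega, rose with dlg1, Cbp20 and Cbp20/dlg1 knockdown. The share was 40% in Fsn, where 20.3% of all genes rose. It was 20% in dlg1, Cbp20 and Cbp20/dlg1, where 4.24%, 7.02% and 7.37% of all genes rose. None of the 5 passed the test in Cbp20/Fsn, and none fell in any of the 5 groups.

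The genes whose levels ran most closely with each gene over the 21 libraries, out of 8135 candidates, are given as a description. Hsp27 was closest to dhd (r = 0.889), which encodes a female germline thioredoxin, and RnrL (0.882), and Hsp26 to l(2)dtl (0.778) and dhd (0.768). The level of dhd was 76.9 CPM in Cbp20/Fsn replicate 3 and 0.265 CPM in replicate 2. That of RnrL was 9.44, 4.60 and 16.8 CPM in replicates 1, 2 and 3. Candidates needed a mean of 5 CPM. The means of dhd (6.22 CPM) and RnrL (5.65 CPM) reach it only with Cbp20/Fsn replicates 1 and 3 counted, where Hsp27 was also high. Their closeness to Hsp26 and Hsp27 is therefore not separate from those libraries. For l(2)efl the closest were Tsp42Eh (0.871), the muscle protein gene Mp20 (0.838) and the alpha-crystallin gene CG14207, or HspB8 (0.838). Hsp83 was closest to uno (0.888) and Tbcb (0.888), a tubulin folding cofactor gene, and DnaJ-1, after Hsp70Bb, to Tbcb (0.836) and w. Within groups the relation of Hsp83 to Tbcb was 0.260. The gene stv was closest to PGRP-LB (0.896; 0.648 within groups), which encodes a peptidoglycan-degrading immune regulator. Hsp83 and DnaJ-1 themselves correlated at 0.797 over all libraries and 0.465 within groups.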

How the data were processed

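Heads of females from 7 groups of 3 libraries were sequenced as stranded single-end RNA. The authors used Trimmomatic 0.36 for trimming, TopHat2 2.1.1 for alignment (fly build 6.08) and HTSeq 0.6.1 for counting per gene. The deposited values are raw counts, 1 column per sequencing batch (3 batches for 17 libraries, 2 for 4), summed here per library. HTSeq summary rows were left out. Of the reads in a gene, in no feature or ambiguous, 10.2% to 14.6% were in no feature. Alignments that were not unique are outside that total. Replicate 1 of dlg1 had 35668166 of these beside 20989761 gene counts, and replicates 2 and 3 had 8794037 and 14951938.

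The model was edgeR 4.0.16 under R 4.3.3. Genes passing filterByExpr (10558) were TMM-normalized and fitted in one quasi-likelihood model of all 21 libraries (legacy option), with 8 contrasts and Benjamini-Hochberg adjustment within each. Replicate numbers did not pair the samples. CPM values were log2-transformed after adding 0.5 for correlations. The procedure was tested on simulated data.

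All 9 genes are named. Each list adds up to 3 genes, those with the largest absolute log2 fold change (above 1, FDR under 0.05, mean of 1 CPM or more), and each of the 9 genes adds the 3 most correlated with it (mean of 5 CPM or more), of which the closest are given. Genes outside this rule were chosen after their values were seen. The genes and lists were chosen with earlier results of these data known. Left-out germline-high libraries and Control KK for all individual knockdowns were added after the data were seen. Positions and exon overlaps come from the BDGP6.54 annotation, later than the authors' release. Alternatives were RLE factors, DESeq2 1.42.0, the likelihood ratio test, 2 other count filters, a replicate block, the first batch, the other control, only the groups compared and each library left out. Floors cover counting error only. The Pak knockdown was not analysed here.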

Additional observations from a re-analysis of the deposited data

Results flagged for a closer look

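For 6 results the effect of adding dlg1 or Fsn knockdown differed with and without Cbp20 knockdown, by an interaction term in edgeR's quasi-likelihood fit. Hsp83 was below the sum in Cbp20/dlg1 (-0.7498 on the log2 scale) and in Cbp20/Fsn (-1.086), DnaJ-1 was below it in both (-0.2911 and -0.6014), stv was below it in Cbp20/dlg1 (-0.3132) and Hsp27 was above it in Cbp20/Fsn (3.015). The values for Hsp83 carry the difference between Control KK and Control GD, and the value for Hsp27 the 2 Cbp20/Fsn libraries high in germline markers. No sample group was large enough for a test of single outlying libraries.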

How the results depend on the processing

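Of 22 changes called, 8 planned settings other than the control, the fold threshold and left-out libraries gave 176 values, of which 167 kept their call, 9 lost it and 0 reversed. Of 168 values with 1 library left out, 142 kept the call, 26 lost it and 0 reversed. The rises of l(2)efl in Cbp20/dlg1 and Cbp20/Fsn reversed against Control GD (-0.04748 and -0.0106). Requiring an absolute log2 fold change above 1 as well left 0 genes changed in dlg1, Cbp20, Cbp20/dlg1, Cbp20/Fsn, between the controls and in Cbp20/dlg1 against the sum, 1 in Fsn and 2 (Hsp83 and Hsp27) in Cbp20/Fsn against the sum. With only the groups compared in the fit, 4 genes changed in Cbp20 and 6 between the controls, and with the first batch only 1 changed between the controls. With 1 library left out, the number changed was 2 to 3 in dlg1, 2 in Fsn, 2 to 3 in Cbp20, 2 to 3 in Cbp20/dlg1, 2 to 5 in Cbp20/Fsn, 1 to 2 between the controls, 3 in Cbp20/dlg1 and 2 to 4 in Cbp20/Fsn against the sum. The cause of these shifts was not tested. Same-numbered libraries of different groups correlated at -0.283 to 0.353 over 63 pairs, and with the number as a replicate block 3 genes changed in Cbp20 in place of 2, and the other counts stayed at 3 or 2. Depth limits Hsp27, with 29 counts in its lowest libraries.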
